A study of Homo sapiens with 64 samples.

Results

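The positions of PCNA on DNA were followed through the cell cycle of U2OS cells, an established human osteosarcoma line, by chromatin immunoprecipitation and sequencing (ChIP-seq). The members are all peaks of the 4 lists deposited for PCNA in U2OS, 369 of the 2442 peaks in the 24 lists of the series. The lists were taken by antibody, line and time, with no use of their values. The list of asynchronous cells (NS) held 118 peaks, and the lists made 3, 7 and 9 h after release from a double thymidine block held 104, 17 and 130 peaks. A double thymidine block stops cells early in S phase, and the study placed 3 h in S phase, 7 h between S phase and G2/M, and 9 h in G2/M. Chromatin was cut with micrococcal nuclease. The same cells were also precipitated for γ-tubulin, Mcm5 and FoxM1, and PCNA was precipitated in shTUBG U2OS, a U2OS line that stably expresses an shRNA against TUBG. The PCNA antibody was a mouse monoclonal, whereas the other antibodies were raised in rabbit, so antibody type and protein cannot be told apart between lists. A list is shared by both samples that the labels place in its group, so there is no replicate error, and the read depth behind a list is unknown. Differences in peak number between lists can therefore follow depth or enrichment, and neither could be measured from the lists. A peak list holds no transcript level, so the shRNA against TUBG could not be checked here.

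PCNA is the ring-shaped clamp that slides along DNA and holds DNA polymerases on their template. It is loaded at replication forks during S phase, and it also takes part in repair synthesis and in the placing of new nucleosomes behind the fork. Mcm5 is a subunit of the helicase that unwinds DNA at origins, γ-tubulin is best known for nucleating microtubules, and FoxM1 is a transcription factor of the late cell cycle. The regions next to centromeres are made largely of satellite repeats, which replicate mostly late in S phase. Reads from near-identical repeat copies cannot be assigned to a single copy, and a copy in the assembly can stand for many in the cell. How multiply mapped reads were treated was not given in the sources used here. Every value for repeats below carries that limit.

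PCNA peaks lay almost entirely on 3 kinds of sequence. Of the 369 peaks, 212 (57.5%) lay in pericentromeres, here the sequence within 2 Mb of a centromere gap of the hg19 assembly. Another 80 peaks (21.7%) were mitochondrial and 56 (15.2%) fell on unplaced or unlocalised scaffolds, pieces of sequence with no settled place on a chromosome. Only 21 peaks (5.69%) lay on chromosome arms. The NS, 3 h and 9 h lists resembled each other in make-up. Pericentromeres held 68 of 118 peaks (57.6%, 95% Clopper-Pearson interval 48.2 to 66.7), 63 of 104 (60.6%, 50.5 to 70.0) and 81 of 130 (62.3%, 53.4 to 70.7) at these times. Mitochondrial peaks made up 18.6% of the NS list, 16.3% at 3 h and 18.5% at 9 h. Scaffolds held 16.1, 17.3 and 14.6% of peaks, and arms 7.63, 5.77 and 4.62%. All these intervals overlapped between the 3 times. Peaks cluster and recur, so the intervals cover counting error only.

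**Figure D1:**
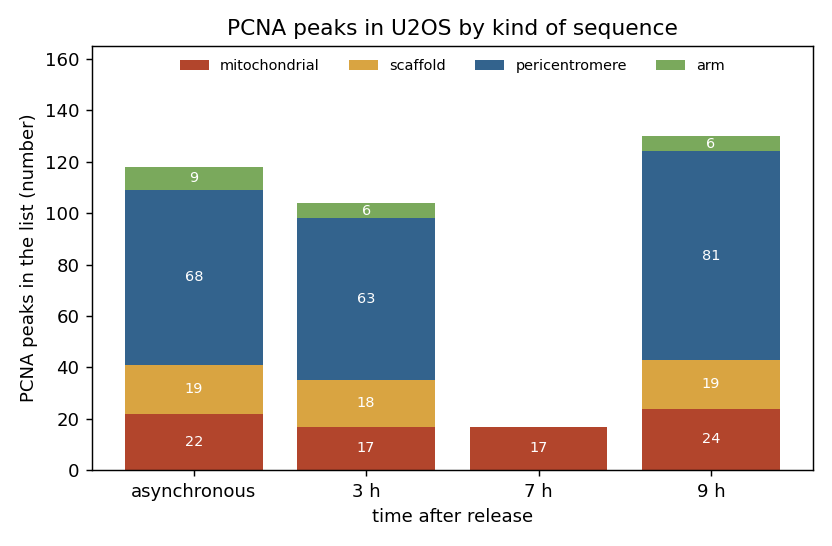
Number of PCNA peaks in each U2OS list (vertical axis) by time after release (horizontal axis), stacked by kind of sequence, with the number of each kind in its block. The lists of asynchronous cells, 3 h and 9 h hold all 4 kinds, with pericentromeres at 68, 63 and 81 peaks, whereas all 17 peaks at 7 h are mitochondrial.

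The 7 h list stood apart from the others. All its 17 peaks were mitochondrial, and its count of 0 elsewhere allows a share of up to 17.6% (3 counts of 17), or 19.5% by the Clopper-Pearson interval. Nuclear peaks, meaning all peaks off the mitochondrial genome, numbered 96, 87, 0 and 106 at NS, 3 h, 7 h and 9 h. They covered 50724, 48794, 0 and 63806 bp at these times. The mitochondrial peaks numbered 22, 17, 17 and 24, so the number at 7 h equalled that at 3 h.

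Within the lists that held nuclear peaks, the pericentromeres also held the highest scores. The score is the whole number that the authors gave each peak, and since its meaning was not stated it was used only to rank peaks within a list. The 17 peaks of highest score were all pericentromeric at NS, 3 h and 9 h, with scores down to 278, 267 and 254. The highest score of a mitochondrial peak was 139, 158 and 160 in the same lists. Expressed as a percentile of the list, where a higher value is a higher score, the median rank of mitochondrial peaks was 34.5, 45.7 and 33.3. The median rank of pericentromeric peaks was 63.3, 54.8 and 58.5. Mitochondrial peaks were therefore neither the most numerous nor the highest peaks at these 3 times.

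The highest peak was the same at all 3 of these times. It lay in chr1:121484023-121485478, at 49956 bp from the centromere gap, and had scores of 708, 780 and 944 at NS, 3 h and 9 h. The next place also went to a shared region, chr10:42598953-42600524, with scores of 617, 702 and 794. By the rule for named regions, 3 further nuclear regions followed. In chr10:42384081-42386627 the best score was 516, 540 and 645 at NS, 3 h and 9 h, and these peaks covered 2462, 2461 and 2547 bp. In chr7:61968600-61969741 it was 472, 560 and 667. In chr19:27731884-27732809 it was 438, 459 and 601. The ranks of the 5 regions ran from the 91.8th to the 99.6th percentile. The rule chose regions by the number of times called and by rank, so these high ranks follow from it. Like every nuclear region, all 5 had no PCNA peak at 7 h. At that time γ-tubulin and FoxM1 each had a peak in all 5 regions, Mcm5 had none, and PCNA of shTUBG U2OS was called in all 5. As background, all nuclear peaks of the 16 U2OS lists were merged into 339 regions. At 7 h γ-tubulin was called in 13.0% of these, FoxM1 in 23.6%, Mcm5 in 6.78% and PCNA of shTUBG U2OS in 3.54%. This background was not limited to regions of like rank.

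To follow positions, a peak was counted as found again where it shared at least 25% of both peaks with a peak of another time. Of the asynchronous peaks, 109 of 118 (92.4%, 86.0 to 96.5) were found at some other time. The share was 97 of 104 (93.3%, 86.6 to 97.3) at 3 h, 16 of 17 (94.1%, 71.3 to 99.9) at 7 h and 107 of 130 (82.3%, 74.6 to 88.4) at 9 h. The 9 h list thus had the lowest share, although its interval overlapped the other 3. Peaks found again were higher and wider than the rest of their list. Their median rank was 52.5, 52.9, 52.9 and 58.5 at NS, 3 h, 7 h and 9 h, and the peaks not found again had median ranks of 21.6, 9.62, 8.82 and 19.2. The median width of the peaks not found was 230, 227, 288 and 236 bp, compared with 367, 363, 409.5 and 419 bp for those found. At 7 h only 1 peak was not found, so its rank and width are single values.

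The lists did not mirror each other, since 9 h contained most of the earlier peaks and added its own. Of the asynchronous peaks, 78.8% (70.3 to 85.8) were found at 3 h and 89.0% (81.9 to 94.0) at 9 h. Of the 3 h peaks, 86.5% (78.4 to 92.4) were found in asynchronous cells and 89.4% (81.9 to 94.6) at 9 h. Of the 9 h peaks, 74.6% (66.2 to 81.8) were found in asynchronous cells and 70.8% (62.2 to 78.4) at 3 h. The 3 longer lists overlapped the 7 h list in 13.6, 15.4 and 12.3% of their peaks, and all peaks found there were mitochondrial.

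**Figure D2:**
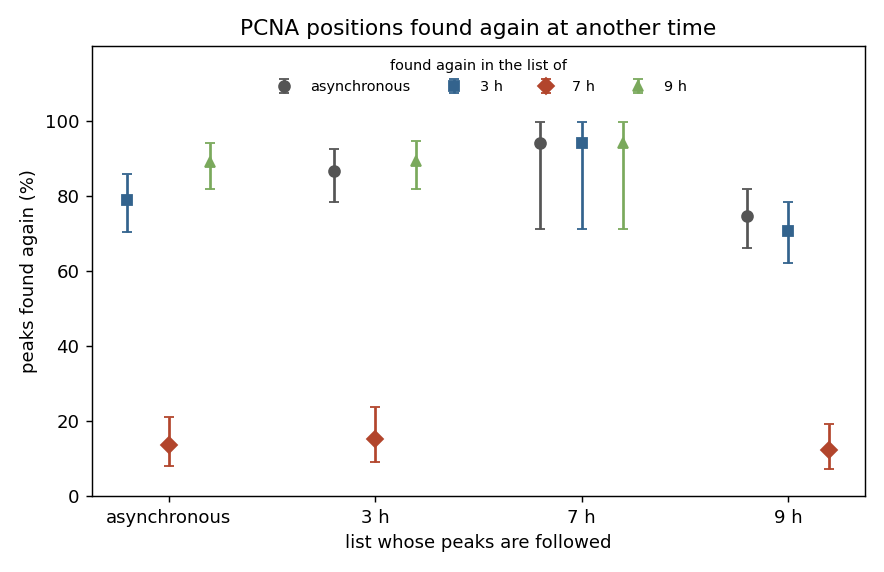
Share of the PCNA peaks of each list (horizontal axis) found again in the list of another time (colour and shape), in percent, with bars for the 95% Clopper-Pearson interval of counting error. Shares between asynchronous cells, 3 h and 9 h run from 70.8 to 89.4%, and only 12.3 to 15.4% of the peaks of these lists are found at 7 h, while 94.1% of the 7 h peaks are found in each of them.

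Peaks of the 4 lists that shared at least 1 bp were merged, which gave 133 regions, 118 of them nuclear and 15 mitochondrial. Of the nuclear regions, 66 (55.9%) were called at NS, 3 h and 9 h, 22 at 2 times and 30 at a single time. No nuclear region was called at 7 h. From asynchronous cells to 3 h, 68 nuclear regions were kept, 19 were lost and 11 were gained. From 3 h to 9 h, 72 were kept, 7 were lost and 34 were gained. From asynchronous cells to 9 h, 80 were kept, 7 were lost and 26 were gained. Of the 66 regions shared by the 3 times, 51 were pericentromeric, 12 were on scaffolds and 3 on arms.

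The 30 nuclear regions called at a single time fell unevenly, with 20 at 9 h, 5 in asynchronous cells and 5 at 3 h. Of the 20 at 9 h, 18 were pericentromeric, 1 was on a scaffold and 1 on an arm. These 20 were narrow and low, with a median width of 236.5 bp and a median rank at the 19.8th percentile, compared with 486 bp and the 64.0th percentile for the 67 regions of any kind called at NS, 3 h and 9 h. All 20 held a peak of another antibody at 9 h, when FoxM1 alone was called in 112 of all 118 nuclear PCNA regions (94.9%). FoxM1 was called in 19 of them at 9 h, γ-tubulin in 14, Mcm5 in 6 and PCNA of shTUBG U2OS in 16, where the background over the 339 regions was 66.1, 34.8, 23.3 and 36.0%. Over all 118 nuclear PCNA regions at 9 h, γ-tubulin was called in 90.7%, Mcm5 in 67.8% and PCNA of shTUBG U2OS in 89.8%. The 20 did not stand above all PCNA regions by these 3 counts. At 3 h FoxM1 was called in 19 of the 20, γ-tubulin in 6, Mcm5 in 2 and PCNA of shTUBG U2OS in 0, with a background of 49.0, 26.8, 28.6 and 8.55%. FoxM1 at 3 h was also called in 111 of all 118 nuclear PCNA regions (94.1%), so the 20 did not stand apart from the rest by this count. γ-tubulin at 3 h was called in 88 of the 118 (74.6%).

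The best ranked of the regions at 9 h alone was on the scaffold gl000199 of chromosome 9 (chr9_gl000199_random:98849-99124), with a score of 248 at the 86.5th percentile. The next 3 all lay in the cluster on chromosome 2 and had scores of 98, 95 and 87. They were chr2:92307333-92307538, chr2:92307919-92308154 and chr2:92296120-92296400, at 18633, 18017 and 29771 bp from the centromere gap. All 3 were called for FoxM1 at 3 h and 9 h and for PCNA of shTUBG U2OS at 9 h.

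The other lists had fewer regions of their own. The best ranked at 3 h alone were chr1:565709-565933 with a score of 97 and chr4:49636335-49636534 with a score of 85. In asynchronous cells alone they were chrM:8480-8818 with a score of 120 and chr4:68266456-68266671 with a score of 101. The mitochondrial stretch was covered by γ-tubulin and Mcm5 peaks at all 4 times.

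Of the 118 nuclear PCNA regions, 116 held a peak in some other list of the series. Such a peak was common, since FoxM1 alone was called at some time in 84.4% of the 339 merged regions. The 2 PCNA regions with no peak in another list were both on arms and both called at a single time. They were chr4:68266456-68266671 in asynchronous cells and chr5:1192139-1192401 at 3 h, where the score was 65. Both were under 300 bp wide, with 216 and 263 bp.

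Peaks gathered in few places. With peaks within 100 kb joined, the 4 lists formed 26 clusters, and the 6 largest held 266 of the 369 peaks (72.1%). They were the mitochondrial genome with 80 peaks, the scaffold gl000226 with 51, and clusters on chromosomes 2, 10 and 16 next to the centromere. Places differed in how they changed between times. The cluster chr2:92268997-92325263 held 14, 9, 0 and 19 peaks at NS, 3 h, 7 h and 9 h, and its peaks covered 4446, 3374, 0 and 7725 bp. Of its 21 regions, 8 were called at 9 h alone. The cluster chr16:46386986-46435516 held 8, 8, 0 and 15 peaks, and 6 of its 17 regions were called at 9 h alone. Together these 2 clusters held 14 of the 20 regions called at 9 h alone.

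The clusters on chromosome 10 changed little between the lists with nuclear peaks. Chr10:42380109-42400754 held 12, 11, 0 and 11 peaks, and chr10:42527901-42600524 held 9, 10, 0 and 9. At chr11:51579390-51591334 there were 6, 6, 0 and 6 peaks in 6 regions, each called at all 3 of the other times. The cluster chr7:61967174-61976341 held 5, 5, 0 and 5 peaks and chr19:27731884-27738911 held 5, 4, 0 and 7. A region on chromosome 6, chr6:58776259-58779526, was a single peak of 3172, 3094 and 3267 bp at NS, 3 h and 9 h. The widest region of all was chr10:42390583-42395097, where peaks covered 4196, 4314 and 4515 bp at these times. On scaffolds, gl000226 held 19, 16, 0 and 16 peaks, and gl000199 held 0, 2, 0 and 3. The widest scaffold region, gl000226 from 6203 to 8345, was covered over 1317, 1724 and 2036 bp.

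**Figure D3:**
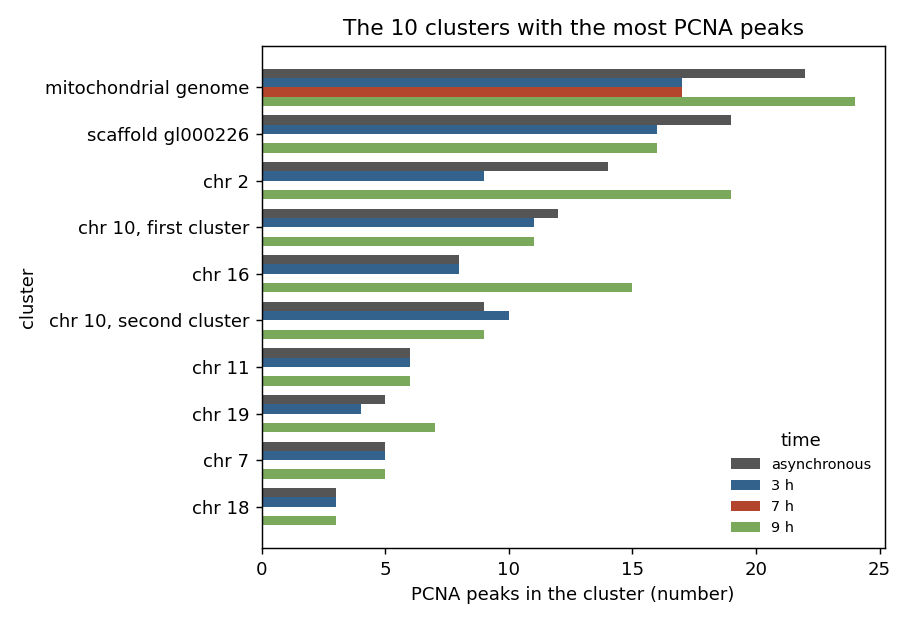
Number of PCNA peaks (horizontal axis) in each of the 10 clusters that hold the most (vertical axis), with a bar for each time. The clusters on chromosomes 2 and 16 hold 19 and 15 peaks at 9 h and 9 and 8 at 3 h, whereas the 2 on chromosome 10 hold 9 to 12 peaks at each of asynchronous cells, 3 h and 9 h, and the mitochondrial genome alone has a bar at 7 h.

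Chromosome arms held 12 regions, of which 3 were called at NS, 3 h and 9 h, 3 at 2 times and 6 at a single time. The recurrent ones were chr3:196625521-196625882, chr5:10168-11785 and chr9:69710866-69711319. The first had scores of 135, 166 and 205 at NS, 3 h and 9 h, with percentile ranks of 69.1, 73.6 and 78.8. The region at the start of chromosome 5 was 257 bp wide with a score of 36 in asynchronous cells, and it was 1617 and 1563 bp wide with scores of 73 and 100 at 3 h and 9 h. The region on chromosome 9 had scores of 134, 88 and 203, and lay 4343186 bp from the centromere gap.

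The regions called at 2 times on arms were chr2:89875133-89875479 and chr2:89879110-89879327, both at NS and 9 h, and chr1:566139-566539 at NS and 3 h. On chromosome 1, 4 regions lay between 565030 and 569520, a stretch that holds a nuclear copy of mitochondrial DNA, so reads from both genomes may not be told apart there. The stretch held 2, 2, 0 and 1 peaks at NS, 3 h, 7 h and 9 h, with a score of at most 111. γ-tubulin was called in each of these 4 regions at all 4 times. The last arm region, chr11:10530756-10530962, was called in asynchronous cells alone with a score of 81, and γ-tubulin and Mcm5 were called there at all 4 times. Whether its sequence also resembles mitochondrial DNA was not checked. Of the asynchronous arm peaks, 4 of 9 were found at 9 h (44.4%, 13.7 to 78.8), compared with 64 of 68 pericentromeric ones (94.1%, 85.6 to 98.4).

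Peak widths were similar in all lists. The median was 356 bp at NS (95% interval from order statistics 309 to 423), 358 bp at 3 h (311 to 439), 367 bp at 7 h (319 to 512) and 363 bp at 9 h (330 to 419). The ranges were 200 to 3172, 200 to 3094, 206 to 1338 and 200 to 4515 bp. Without mitochondrial peaks the medians were 351.5, 342 and 363 bp, with no value at 7 h. Widths of the same position differed more than these medians. Peaks were matched 1 to 1 where each had a single partner, which left 67 nuclear pairs between 3 h and 9 h. The 9 h peak was wider in 57 pairs and narrower in 8, with a median ratio of 1.12. Between asynchronous cells and 9 h, 54 of 73 nuclear pairs were wider at 9 h, with a median ratio of 1.08. Between asynchronous cells and 3 h, 30 of 71 were wider at 3 h, with a median ratio of 0.982. Nuclear positions were therefore mostly wider at 9 h, although the lists had the same typical width. Pairs share a library, so these counts carry no test, and read depth was not tested.

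The order of scores was kept between times at nuclear positions. Over the matched nuclear pairs, Spearman's rho between scores was 0.837 for NS and 3 h (71 pairs), 0.896 for 3 h and 9 h (67 pairs) and 0.925 for NS and 9 h (73 pairs). Over mitochondrial pairs it was 0.319 (13 pairs), 0.357 (12 pairs) and 0.355 (17 pairs). With the 7 h list, where all pairs are mitochondrial, it was 0.175 with NS, 0.256 with 3 h and -0.24 with 9 h over 13 to 16 pairs. These correlations are across positions that share 2 lists, and repeat copy number is common to both times, so they describe the lists only.

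**Figure D4:**
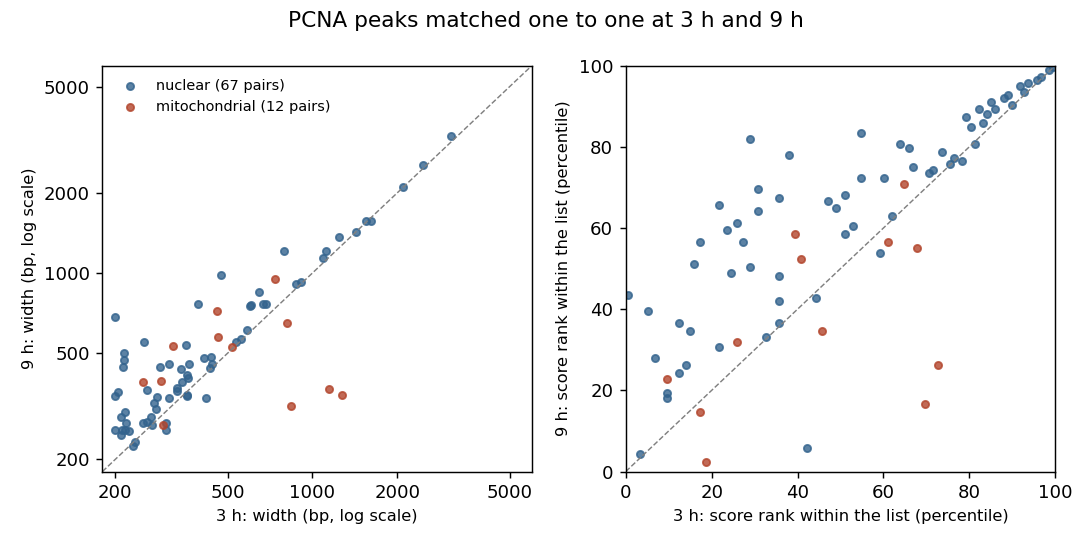
PCNA peaks matched 1 to 1 between 3 h (horizontal axes) and 9 h (vertical axes), by width in bp on log scales (left) and by the percentile rank of the score within the list (right), with nuclear pairs in blue, mitochondrial pairs in red and a dashed line of equality. Of the 67 nuclear pairs 57 are wider at 9 h, and their ranks follow each other (rho of the scores 0.896), whereas the 12 mitochondrial pairs scatter (0.357).

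The 7 h peaks all overlapped mitochondrial peaks of the other times by at least 1 bp. They fell between 382 and 16525 of the 16571 bp mitochondrial genome, were 206 to 1338 bp wide and had scores from 32 to 99. The highest were chrM:9570-9936 with a score of 99, chrM:4667-5002 with 92 and chrM:1328-1779 with 90. The widest, chrM:10985-12322, had a score of 51, and the lowest, chrM:15221-15732, had 32. Of the 17, 16 were found at each of the other 3 times. The exception was chrM:3057-3344, with a score of 37, which shared 176, 89 and 173 bp with peaks of NS, 3 h and 9 h which was less than 25% of the partner peak.

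The mitochondrial genome was covered over 59.9, 66.6, 48.1 and 61.0% of its length at NS, 3 h, 7 h and 9 h. Of the bases covered at 7 h, 86.6% were also covered at NS, 88.8% at 3 h and 80.9% at 9 h. Only 6 bp of the 7 h peaks were covered at no other time. All 4 lists shared 5157 bp, and 14316 bp (86.4%) were covered at some time. The longest stretch with no PCNA peak at any time ran from 9937 to 10827 and was 891 bp long, and 18 lists of other antibodies or of shTUBG U2OS had a peak that touched it. The mitochondrial region with the highest rank over times was chrM:2248-4234, with a best score of 136, 158, 84 and 160 at NS, 3 h, 7 h and 9 h. Ranks are not set side by side here, since the 7 h list holds mitochondrial peaks alone. Among the 7 h peaks, 4 had a higher score. The widest was chrM:10828-13549, covered over 1681, 2142, 2030 and 1985 bp.

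To see whether the gap at 7 h was shared, the other lists were read at the same time. PCNA, γ-tubulin, Mcm5 and FoxM1 all had their fewest peaks at 7 h in U2OS, and so did PCNA in shTUBG U2OS. γ-tubulin in shTUBG U2OS did not, with 94, 33, 42 and 67 peaks at NS, 3 h, 7 h and 9 h. The size of the drop differed between proteins. Between NS and 7 h the U2OS lists went from 129 to 123 peaks for FoxM1 and from 102 to 75 for γ-tubulin. They went from 98 to 29 for Mcm5 and from 118 to 17 for PCNA. Nuclear peaks at 7 h numbered 0 for PCNA, 70 for γ-tubulin, 24 for Mcm5 and 107 for FoxM1, and 17 for PCNA in shTUBG U2OS. Mcm5 also had 0 pericentromeric peaks at 7 h, after 58 at 3 h and before 65 at 9 h.

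Many nuclear PCNA regions were still called for other proteins at 7 h. Of the 118 regions, 46 (39.0%) held a γ-tubulin peak and 58 (49.2%) a FoxM1 peak at 7 h, whereas 5 (4.24%) held an Mcm5 peak. The regions with Mcm5 were the 4 in chr1:565030-569520, the stretch with a nuclear copy of mitochondrial DNA, and chr11:10530756-10530962. Reads from both genomes may not be told apart in the stretch on chromosome 1. Whether the same holds for the region on chromosome 11 was not checked, because no genome sequence was at hand. Of the 66 regions called for PCNA at the 3 other times, γ-tubulin was called in 41 (62.1%) at 7 h, FoxM1 in 49 (74.2%) and Mcm5 in 0, and PCNA of shTUBG U2OS in 11 (16.7%). At 9 h γ-tubulin, FoxM1 and PCNA of shTUBG U2OS were called in all 66, and Mcm5 in 63, with a background of 34.8, 66.1, 36.0 and 23.3% for the 4 in this order. Of the 339 merged regions of the U2OS lists, 93 held a PCNA peak. At 7 h, γ-tubulin was called in 41.9%, Mcm5 in 5.38% and FoxM1 in 53.8% of these 93 regions. The 246 without PCNA, each of which holds another protein by construction, had 2.03, 7.32 and 12.2%. For Mcm5 the share at 7 h was close to the background of 6.78%. In asynchronous cells, 46.6% of the 118 regions held γ-tubulin, 43.2% Mcm5, 47.5% FoxM1 and 36.4% PCNA of shTUBG U2OS, with a background of 18.6, 17.4, 23.0 and 13.3%.

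**Figure D5:**
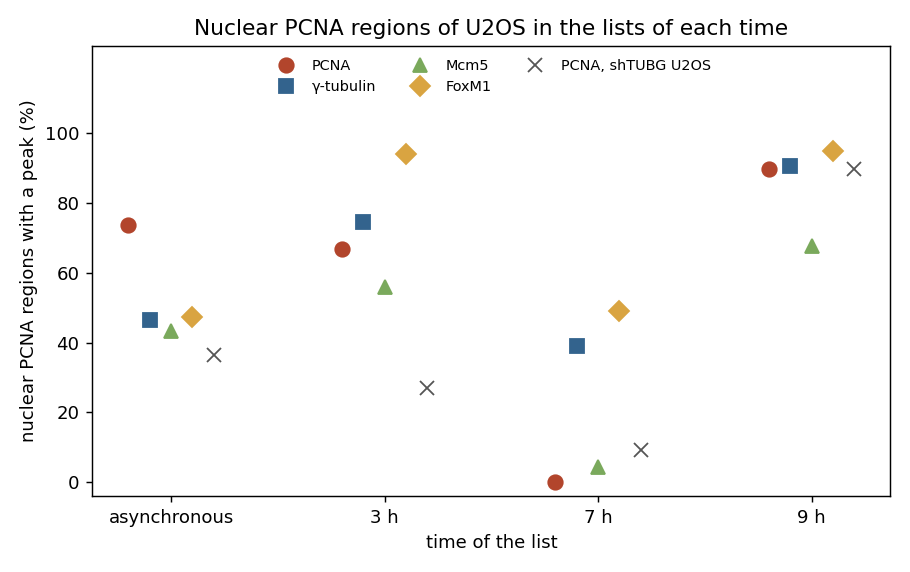
Share of the 118 nuclear PCNA regions of U2OS that hold a peak in each list (vertical axis, percent) by the time of that list (horizontal axis), for PCNA, γ-tubulin, Mcm5 and FoxM1 in U2OS and for PCNA in shTUBG U2OS. At 7 h the shares are 0, 39.0, 4.24, 49.2 and 9.32%, and at 9 h 89.8, 90.7, 67.8, 94.9 and 89.8%. The points of PCNA follow from how the regions were made.

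The overlap of nuclear PCNA peaks with the other proteins at the same time was lowest in asynchronous cells, with no nuclear peak at 7 h to compare. Of the nuclear PCNA peaks, the share that overlapped γ-tubulin was 60.4% (49.9 to 70.3) at NS, 86.2% (77.1 to 92.7) at 3 h and 90.6% (83.3 to 95.4) at 9 h, again by 25% of both peaks. For Mcm5 the shares were 56.3, 75.9 and 72.6%, and for FoxM1 59.4, 78.2 and 76.4%. In asynchronous cells 26 of 96 nuclear peaks (27.1%, 18.5 to 37.1) overlapped none of the 3 other proteins, compared with 5 of 87 (5.75%, 1.89 to 12.9) at 3 h and 3 of 106 (2.83%, 0.588 to 8.05) at 9 h. The asynchronous interval did not meet the others, but these intervals cover counting error only. Peaks of a list are not independent and each time has 1 list, so the times were not compared by a test. All 3 other proteins were present at 44, 52 and 60 of these peaks. Lists of a time can share input samples, and the other lists had fewer peaks in asynchronous cells than at 3 h.

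PCNA peaks shared with more proteins stood higher in the list. In asynchronous cells the median rank of nuclear peaks was 30.5, 35.6, 62.3 and 78.8 for peaks with 0, 1, 2 and 3 other proteins. At 3 h it was 4.33, 9.62, 42.3 and 68.8. At 9 h it was 45.0, 15.8, 40.4 and 73.8, where the first value rests on 3 peaks. Over all times, of the 93 merged regions with PCNA, 93.5% held γ-tubulin, 71.0% Mcm5 and 96.8% FoxM1 at some time, compared with 41.6, 41.3 and 84.4% of the 339 regions. The 246 regions without PCNA had 22.0, 30.1 and 79.7%, and these can hold only the other proteins. FoxM1 was common at nuclear regions with or without PCNA, and γ-tubulin was called in a smaller share of those that lacked PCNA. These shares depend on how the regions were made and on list length, with 698 FoxM1, 453 γ-tubulin and 368 Mcm5 peaks in U2OS. They describe the lists only.

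On the mitochondrial genome the picture differed, since PCNA peaks overlapped FoxM1 peaks in 77.3, 82.4, 82.4 and 70.8% at NS, 3 h, 7 h and 9 h. The same peaks overlapped γ-tubulin in 9.09, 0, 17.6 and 0% and Mcm5 in 31.8, 11.8, 11.8 and 0%. The rule of 25% of both peaks weighs here, because γ-tubulin and Mcm5 covered 91.8 to 99.2% of the mitochondrial genome with 2 to 8 peaks per list. FoxM1 covered 65.7 to 78.8% with 16 to 18 peaks, which is closer to the 17 to 24 peaks of PCNA.

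The PCNA lists were compared with the lists of the other 3 antibodies in U2OS by an exact two-sided permutation test of 1 value per list, with antibody labels exchanged within a time and p-values adjusted over 4 values. The mitochondrial share of peaks was 38.4% on average for PCNA and 7.25% for the others, higher for PCNA at 4 of 4 times, with a difference of 31.1 percentage points (p = 0.0039, the smallest that the arrangements allow, adjusted p = 0.0156, exact permutation test). None of the 7 alternatives run for this value kept the call, with adjusted p from 0.0625 to 0.417. With any time left out, the unadjusted p was 0.0156, the smallest that 64 arrangements allow (exact permutation test). Without 7 h the difference was 12.3 points (adjusted p = 0.0625, exact permutation test). These differences are in shares of the number of peaks, whatever their width. Counted in covered bases, a choice made after the data were seen, the mitochondrial share was 37.1% for PCNA and 24.6% for the others, with p = 0.313 (exact permutation test). Without 7 h, PCNA had 16.2% and the others 19.5% of covered bases (p = 0.422, exact permutation test). The number of peaks differed by -34.3 from the others, fewer for PCNA at 3 of 4 times, and the median width by 12.8 bp (adjusted p = 0.307 for both, exact permutation test). The pericentromeric share differed by -3.83 points (adjusted p = 0.938, exact permutation test).

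PCNA positions of U2OS were last looked up in the PCNA lists of shTUBG U2OS. These lists held 87, 51, 25 and 155 peaks at NS, 3 h, 7 h and 9 h, and a longer list can match more peaks. Over the 339 regions they were called in 13.3, 8.55, 3.54 and 36.0%. The 9 h list, the longest, held 70.3% (61.2 to 78.4) of the asynchronous U2OS peaks, 76.0% (66.6 to 83.8) of the 3 h peaks and 77.7% (69.6 to 84.5) of the 9 h peaks. Lists of the same time shared less in asynchronous cells and at 3 h, with 51.7% and 36.5% of the U2OS peaks found. The 7 h peaks of U2OS were found in 15 of 17 cases in asynchronous shTUBG U2OS, in 6 at 7 h and in 1 at 9 h, where shTUBG U2OS had 1 mitochondrial peak. An exact two-sided sign-flip test compared the lines over 4 pairs of lists, too few for a p below the threshold of 0.05. The mitochondrial share of peaks was 38.4% in U2OS and 16.5% in shTUBG U2OS (lower at 3 of 4 times, adjusted p = 0.5, exact sign-flip permutation test). The pericentromeric share was 45.1 and 65.1% (higher at 3 of 4 times, adjusted p = 0.5, exact sign-flip permutation test). The lines were not told apart by peak number or median width either (adjusted p = 0.625 and 0.5, exact sign-flip permutation test).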

How the data were processed

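Immunoprecipitated DNA was sequenced by the authors, and peaks were called with MACS2. The submitters' processing notes also name Bowtie2 2.1.0, SAMtools 1.7-13 and the build hg19. The authors deposited 24 lists, each with the position of every peak and a whole-number score of unstated meaning, used here for ranks within a list. The labels name 64 samples in groups of 2, and a list covers both samples of its group. Input samples were not used here, and how they were combined with the lists was not given in the sources used here. Read depth is unknown. Whether duplicates or blacklisted regions were removed was not stated, and the lists hold mitochondrial peaks.

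Peaks were compared in Python 3.11.15 with numpy 2.4.6 and scipy 1.17.1, and drawn with matplotlib 3.10.9. Positions are printed in hg19 as the lists give them, counted from 1. Centromere gaps, joined with adjacent heterochromatin gaps, were written down by hand from knowledge of that assembly, with no genome at hand to check them. No peak of any list, 0 in all, touched a gap. No sequence was printed and no gene assigned, because the tables at hand are on GRCh38. A percentile rank is 100 times the rank less 0.5, over the number of peaks. Overlap required 25% of both peaks, which is the study's rule, and presence in a merged region required 1 bp.

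Regions were named by a rule. It took the 6 regions called at most times (by rank, 1 per 100 kb cluster), up to 4 best ranked regions called at a single time, arm regions if 12 or fewer, the 7 h peaks, and the widest region of each kind. The regions, rules and tests were chosen with earlier results of these data known. Shares carry 95% Clopper-Pearson intervals, and Benjamini-Hochberg adjusted p-values were read at a threshold of 0.05. Overlap and permutation code was tested on simulated data. Alternatives were other overlaps (1 bp, 50%), peaks at or above the median score, peaks within 1000 bp merged, no mitochondrial peaks, windows of 1 and 5 Mb, covered bases, and times left out.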

Additional observations from a re-analysis of the deposited data

Results flagged for a closer look

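From asynchronous cells to 3 h, the number of PCNA peaks in U2OS changed by -14, from 118 to 104, while it changed by 21 for γ-tubulin, 34 for Mcm5 and 73 for FoxM1. PCNA was thus the only one of the 4 antibodies in U2OS with fewer peaks at 3 h. In shTUBG U2OS the number also fell, from 87 to 51 for PCNA and from 94 to 33 for γ-tubulin. With 1 list per antibody and time, the difference between antibodies was not tested, and the part of read depth was not tested.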

How the results depend on the processing

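No paired analysis was possible because the 2 samples of a group share a single list, so replicates could be neither paired nor left out, and lists were matched by time alone. Alternatives gave 242 values for 62 results. Of these, 160 kept their size or their side of the threshold, 71 values without a test moved, 7 lost their call and 4 changed sign. Read depth is unknown and limits every count. Shares at 7 h rest on 17 peaks. Where no reason is given below, the cause was not tested.

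With peaks within 1000 bp merged, which joins neighbouring peaks by construction, 68 PCNA regions remained, 39 of them called at NS, 3 h and 9 h and 16 at a single time, compared with 133, 79 and 32. The mitochondrial share became 1.96, 3.92 and 1.67% at NS, 3 h and 9 h, and the pericentromeric share 78.4, 76.5 and 81.7%. At 7 h the median width was 1833 bp and 40.0% of the merged peaks were found again. With low-scored peaks left out (below the median score of the list), there were 74 regions, 38 at the 3 times and 15 at a single time. Of the asynchronous peaks 96.7% were found again, 11.7% were mitochondrial and 70.0% pericentromeric, and at 9 h 10.8% were mitochondrial. Median widths were then 456, 555.5 and 472 bp at NS, 3 h and 9 h. At an overlap of 1 bp, 100% of the 7 h peaks were found again. The shares of all PCNA peaks with γ-tubulin, Mcm5 and FoxM1 were 85.1, 75.3 and 88.3% at 1 bp and 58.0, 48.0 and 55.0% at 50% of both peaks, compared with 63.4, 56.4 and 72.6% at 25%.

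The excess of the mitochondrial share over the other antibodies was 23.7 percentage points with low-scored peaks left out (adjusted p = 0.0938, exact permutation test) and 24.8 with peaks merged (adjusted p = 0.0703, exact permutation test). It was 38.1 without asynchronous cells, 37.5 without 3 h, 12.3 without 7 h and 36.6 without 9 h (adjusted p = 0.0625 in each, from the smallest p that 64 arrangements allow, exact permutation test). Counted in covered bases, an alternative chosen after the data were seen, it was 12.5 points (adjusted p = 0.417, exact permutation test). The pericentromeric difference changed sign to 9.78 points with peaks merged and 6.27 without 7 h, and the width difference to -3.38 bp with low-scored peaks left out. The difference in peak number between shTUBG U2OS and U2OS changed sign to 0.667 without 3 h. None of these 4 passed the threshold in either form. Without mitochondrial peaks the 7 h PCNA list is empty, so the shares and widths of that alternative have no value there.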
